A study of Mus musculus with 33 samples.

Results

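The course of PTHrP WT tumors from hyperplasia to carcinoma was followed in 9 of the 33 RNA libraries of the series, 3 from mice of 6 weeks, 3 from mice of 8 weeks and 3 from mice of 10 weeks. These libraries were chosen by their labels (WT, tumor, age), with no measured value involved. In the study's staging of WT tumors, the age of 6 weeks stands for hyperplasia, 8 weeks for adenoma and 10 weeks for carcinoma, so age and stage cannot be told apart. A WT tumor of 12 weeks, the only one of its age, is shown beside them and is compared in no test.

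All 10 mice were FVB PyMT-MMTV; Pthrp wt/wt; Cre+; mTmG. They carried the polyoma middle T antigen under the mouse mammary tumor virus (MMTV) promoter, wild-type Pthrp alleles, MMTV-Cre and the mTmG reporter, which switches from membrane tdTomato to membrane GFP where Cre has acted. Tumor tissue was digested and kept for 48 h in medium with serum, and GFP+ cells were then sorted for total RNA. Each library came from 1 mouse and from cells that had been in culture, so the values describe sorted and cultured tumor cells of single mice, not intact tissue. 4 libraries of GFP+ cells from tumor-free WT glands (2 of 6 weeks and 2 of 10 weeks, the same genotype without PyMT) and 6 of PTHrP KO tumors (Pthrp flox/flox; 3 of 8 weeks and 3 of 12 weeks) served only to test whether the change in WT tumors differed from theirs.

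Polyoma middle T antigen is a membrane protein of a mouse virus that recruits SRC kinases, phosphoinositide 3-kinase and the SHC adaptor, and so resembles a receptor tyrosine kinase that is always on. In the MMTV-PyMT mouse it drives mammary epithelium from hyperplasia through adenoma to invasive carcinoma, and hormone receptors and the basal cell layer are known to be lost on the way. Proliferating cells of such tumors draw on DNA replication, mitosis and the supply of cholesterol for new membranes, while matrix proteases act at the border with the stroma.

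The 9 tumors gave 31642985 to 108497913 counted reads each, and the tumor of week 12 gave 91096907. Ribosomal RNA genes took 0.00717% to 0.447% of the reads. The 10 mammary epithelial marker genes had a summed level of 10300 to 11400 CPM (read counts scaled to the library size) in the tumors of week 6, of 8320 to 9800 CPM in those of week 8 and of 6420 to 10800 CPM in those of week 10. Of the 10 lymphocyte markers, all were below 1 CPM, and their sum was 0.147 to 1.36 CPM in all 9 tumors. The row of the PyMT transgene was at 11.4, 10.7 and 3.14 CPM at week 6, at 29.9, 26.2 and 62.4 CPM at week 8, at 48.0, 14.8 and 10.7 CPM at week 10 and at 73.6 CPM in the tumor of week 12. Its week 8 values were all above those of week 6 (mean log2 difference 2.33, exact two-sided permutation test p = 0.1, the smallest p that 3 against 3 tumors allow). Its week 10 values overlapped with both other ages (1.44 over week 6, exact permutation p = 0.2). The PyMT level varied between tumors of 1 age, and its part in the results was not tested.

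The tumors of week 10 differed more among themselves than those of the earlier ages. Over 12997 genes with a mean of at least 1 CPM, the median SD of log2 CPM between the 3 tumors of an age was 0.124 at week 6, 0.122 at week 8 and 0.263 at week 10. The differences between the libraries of a pair had an SD of 0.402 to 0.537 on the log2 scale within week 6, 0.351 to 0.416 within week 8 and 0.611 to 0.76 within week 10. Between tumors of weeks 6 and 10 it was 0.454 to 0.896, which overlaps with the range within week 10.

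The first question was which genes changed between week 6 and week 10. Differentially expressed genes (DEGs) were those with a fold change above 1.5 and an adjusted p under 0.1 by edgeR's quasi-likelihood test over 36527 genes. 4 genes fell (0.011% of the genes tested) and 0 rose (0%). At an unadjusted p under 0.05, 1793 genes (4.91%) were higher and 1329 (3.64%) lower at week 10. DESeq2, run on the same libraries with the same thresholds, called 114 genes higher (0.312%) and 139 lower (0.381%), and the 4 genes of edgeR were among them. The 3 tumors of week 10 were all above the 3 of week 6 for 2246 genes (6.15%) and all below for 1887 genes (5.17%). The count turned on single tumors. Without replicate 1 or 2 of week 10, replicate 2 of week 8 or replicate 3 of week 6, edgeR called 0 genes. Without replicate 3 of week 10 it called 376, of which 127 were also called by DESeq2 on all libraries. With so few genes past the adjusted test, the gene groups below are described by their counts, medians and values in each tumor.

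The 4 genes that fell were Mmp10, Dusp10, Calcb and Dcdc2a. Mmp10 (chr9:7502352-7510240, GRCm38) encodes stromelysin-2, a secreted protease that cleaves matrix proteins and activates other matrix metalloproteinases. It was at 12.28, 11.3 and 32.8 CPM in the tumors of week 6, at 5.65, 3.65 and 3.21 CPM at week 8, and at 2.23, 4.42 and 2.30 CPM at week 10. Every tumor of weeks 8 and 10 was below every tumor of week 6, and the tumor of week 12 had 4.2 CPM. The log2 fold change from week 6 to week 10 was -2.66 (SE 0.46, edgeR adjusted p = 0.084).

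Dusp10 (chr1:184013302-184075636) encodes a phosphatase that switches off the stress-activated kinases p38 and JNK. It was at 26.1, 24.3 and 36.8 CPM at week 6, at 14.9, 16.7 and 11.7 CPM at week 8 and at 6.47, 9.54 and 12.8 CPM at week 10. The groups of weeks 6 and 10 did not overlap, and the log2 fold change was -1.60 (SE 0.27, edgeR adjusted p = 0.084). The tumor of week 12 was at 18.9 CPM, above all 6 tumors of weeks 8 and 10.

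Calcb (chr7:114718643-114723365) encodes the beta form of calcitonin gene-related peptide, a peptide of the calcitonin family that signals through a Gs-coupled receptor. Its level was 3.10, 1.09 and 6.02 CPM at week 6, 2.61, 1.51 and 1.91 CPM at week 8 and 0.269, 0.496 and 0.468 CPM at week 10. Weeks 6 and 8 overlapped, and all tumors of week 10 were below both. The log2 fold change over the whole course was -3.04 (SE 0.54, edgeR adjusted p = 0.084). The values at week 10 rest on 14, 21 and 23 reads.

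Dcdc2a (chr13:25056004-25210706) encodes a doublecortin-domain protein that binds microtubules and is found in primary cilia. It was at 10.6, 7.63 and 19.6 CPM at week 6, at 7.92, 9.14 and 4.66 CPM at week 8 and at 2.19, 4.02 and 2.16 CPM at week 10. As with Calcb, week 8 overlapped with week 6 and not with week 10. The log2 fold change was -2.18 (SE 0.39, edgeR adjusted p = 0.084).

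Across the 17 alternative settings, the direction of all 4 genes was unchanged. Mmp10 passed in 11 of them (log2 fold change -3.05 to -1.99), Dusp10 in 10 (-1.86 to -1.38), Calcb in 9 (-3.46 to -2.36) and Dcdc2a in 7 (-2.53 to -1.72), with adjusted p up to 0.581 where they did not pass. 975 genes passed in at least 1 of the 18 settings, and only 8 in at least 5, all of them lower at week 10. Besides the 4 above, these were Slc7a8, Ripor2, Cldn6 and Mmp12, chosen after their values were seen.

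Slc7a8 encodes LAT2, an exchanger of neutral amino acids. It was at 2.11, 0.939 and 3.64 CPM at week 6, at 0.488, 0.363 and 0.383 CPM at week 8 and at 0.192, 0.283 and 0.224 CPM at week 10 (log2 fold change -3.24, SE 0.61, edgeR adjusted p = 0.115). Ripor2, an inhibitor of the small GTPase RhoA, was at 7.94, 5.68 and 8.83 CPM at week 6 and at 1.96 to 2.76 CPM in the 6 tumors of weeks 8 and 10 (log2 fold change -1.89, SE 0.39, edgeR adjusted p = 0.311). In both genes each tumor of weeks 8 and 10 was below each tumor of week 6. Cldn6, a tight junction protein of embryonic epithelia, was at 9.44, 4.78 and 26.8 CPM at week 6, 5.00, 6.71 and 3.53 CPM at week 8 and 2.50, 1.30 and 3.01 CPM at week 10 (log2 fold change -2.57, edgeR adjusted p = 0.157).

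Mmp12, the macrophage elastase, lies 132853 bases before Mmp10 on the same strand of chromosome 9. Its levels were 17.6, 7.02 and 45.3 CPM at week 6, 5.93, 10.5 and 8.83 CPM at week 8 and 8.10, 2.34 and 5.15 CPM at week 10. The groups of weeks 6 and 10 overlapped, the log2 fold change was -2.16 (SE 0.49, edgeR adjusted p = 0.341), or -1.24 without replicate 3 of week 6, and the tumor of week 12 was at 19.6 CPM. The 10 macrophage markers summed to 151 to 264 CPM at week 6, 276 to 293 CPM at week 8 and 215 to 265 CPM at week 10, with 6 of the 10 below 1 CPM, and their part in the Mmp12 values was not tested. The highest single value among these markers was 275.8 CPM, so 1 gene made up most of the sum in that tumor. The markers include Cd14, which is also in the luminal progenitor and alveolar list. In the same metalloproteinase cluster, Mmp3 (stromelysin-1) was at 5.34, 6.03 and 3.84 CPM at week 6 and at 13.5, 3.95 and 18.7 CPM at week 10, and Mmp13 (collagenase-3) at 3.79, 3.86 and 5.90 CPM and at 4.48, 0.969 and 2.93 CPM. Neither passed edgeR's adjusted test (log2 fold changes of 1.24, SE 1.20, and -0.68, SE 0.42). In replicate 3 of week 6, Mmp10, Dusp10, Calcb, Dcdc2a, Slc7a8, Ripor2, Cldn6 and Mmp12 were each at their highest level of the 10 tumors.

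**Figure D1:**
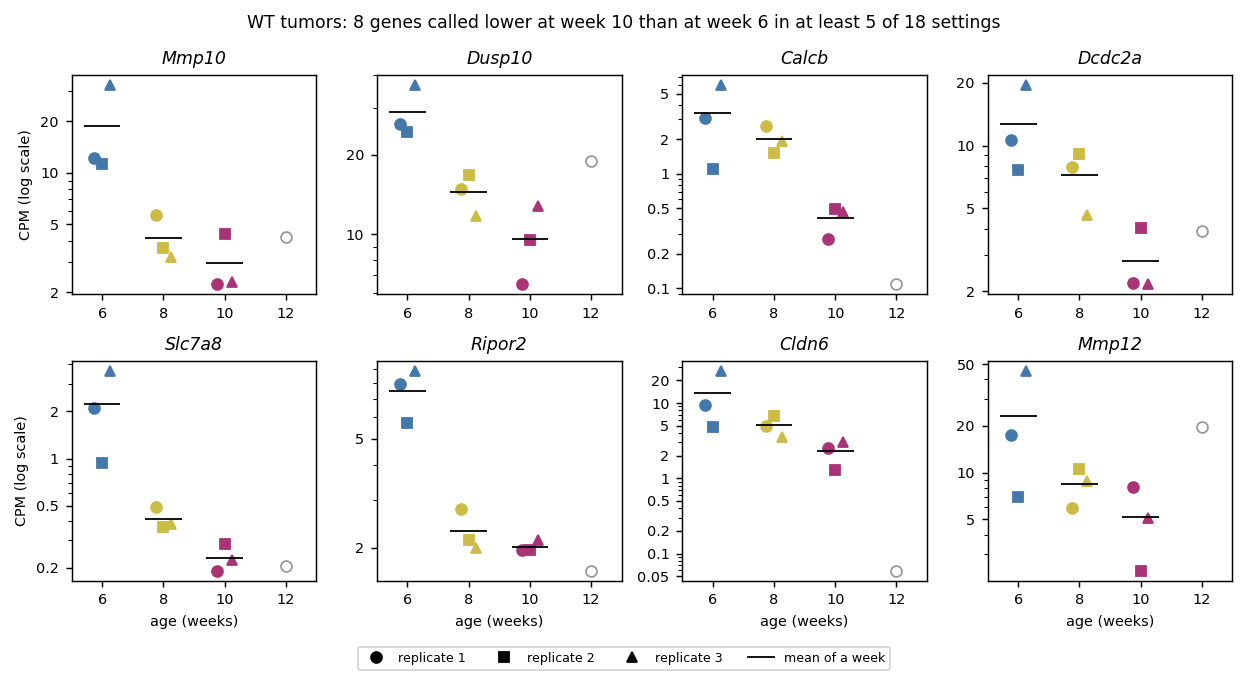
Level of the 8 genes that were lower at week 10 than at week 6 in at least 5 of 18 settings, in CPM on a log axis, against the age of the mouse in weeks. Each point is 1 tumor (circle, square and triangle for replicates 1, 2 and 3; open circle for the tumor of week 12), and bars are the means of 3 tumors. In Mmp10 and Ripor2 the drop lies mostly between weeks 6 and 8, in Calcb and Dcdc2a between weeks 8 and 10, and only Mmp12 overlaps between weeks 6 and 10.

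To show what lies before the start of genes that the results turn on, the 250 bases before the start are given for 6 of them, from RefSeq promoters of GRCm38.p6. Each is printed 5′ to 3′ in the direction of the gene. In Mmp10 (chr9:7502092-7502341, plus strand), the capitals mark a match to the AP-1 site TGANTCA, 63 bases before the start. In Insig1 (chr5:28071162-28071411, plus strand), Idi1 (chr13:8885356-8885605, plus strand) and Hmgcs1 (chr13:119690101-119690350, plus strand), 3 genes of cholesterol synthesis, they mark the CCAAT box, which binds NF-Y, read on either strand (CCAAT or ATTGG). In Mcm6 (chr1:128359706-128359955, minus strand), a subunit of the replicative helicase, they mark E2F sites (TTTCCCGC, TTTGGCGC, TTTCGCGC or TTTGCCGC on either strand, of which overlapping matches run together). In Cdk1 (chr10:69352913-69353162, minus strand), the kinase that starts mitosis, they mark TTTGAA or its complement, the core of the cell cycle homology region.
Mmp10: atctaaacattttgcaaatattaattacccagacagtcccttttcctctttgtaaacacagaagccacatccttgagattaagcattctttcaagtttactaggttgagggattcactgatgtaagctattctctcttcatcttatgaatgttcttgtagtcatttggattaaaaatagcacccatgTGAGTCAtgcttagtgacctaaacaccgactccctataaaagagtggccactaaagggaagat
Insig1: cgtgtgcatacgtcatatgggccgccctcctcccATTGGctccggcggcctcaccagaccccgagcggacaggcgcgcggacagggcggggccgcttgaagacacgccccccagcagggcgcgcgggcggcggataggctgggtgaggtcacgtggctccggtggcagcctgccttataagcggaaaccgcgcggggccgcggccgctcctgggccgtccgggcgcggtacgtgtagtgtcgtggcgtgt
Idi1: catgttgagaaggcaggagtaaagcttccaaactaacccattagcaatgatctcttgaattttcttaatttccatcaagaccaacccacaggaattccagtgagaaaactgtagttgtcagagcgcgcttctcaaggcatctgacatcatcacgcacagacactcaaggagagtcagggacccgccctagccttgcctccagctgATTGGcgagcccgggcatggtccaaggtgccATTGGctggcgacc
Hmgcs1: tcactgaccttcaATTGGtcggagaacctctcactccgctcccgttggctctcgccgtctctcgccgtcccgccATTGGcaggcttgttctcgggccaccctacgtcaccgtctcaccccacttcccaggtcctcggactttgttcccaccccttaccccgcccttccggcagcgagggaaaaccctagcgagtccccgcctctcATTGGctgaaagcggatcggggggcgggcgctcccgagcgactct
Mcm6: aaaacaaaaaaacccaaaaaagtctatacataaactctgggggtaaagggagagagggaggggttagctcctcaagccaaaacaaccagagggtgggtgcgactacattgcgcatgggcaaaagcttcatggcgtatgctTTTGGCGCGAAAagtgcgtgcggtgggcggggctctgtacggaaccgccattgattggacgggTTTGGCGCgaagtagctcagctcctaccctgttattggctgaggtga
Cdk1: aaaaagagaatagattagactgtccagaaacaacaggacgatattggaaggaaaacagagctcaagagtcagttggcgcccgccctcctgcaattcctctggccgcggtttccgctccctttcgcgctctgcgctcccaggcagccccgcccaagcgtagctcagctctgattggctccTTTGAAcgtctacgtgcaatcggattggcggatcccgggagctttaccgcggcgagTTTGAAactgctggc

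These motifs were searched on both strands in windows from 250 bases before to 50 after the start of 27025 genes. The cell cycle homology region was present in 18 of the 24 genes of the G2/M list with a window (75.0%) against 20.2% of all genes, and the CCAAT box in 21 of these 24 (87.5%) against 41.1%. The E2F letters were present in 12 of 25 DNA replication genes (48.0%) against 2.6% of all genes, and in 1 of 24 G2/M genes (4.17%). All 12 cholesterol genes with a window held a CCAAT box, while the letters TCACNCCAC, a form of the sterol response element, were in 1 of the 12 (8.33%, against 1.44% of all genes), Hmgcs1. AP-1 letters were in 2 of the 7 genes with a window among the 8 that were lower in at least 5 settings (28.6%, against 8.97%), Mmp10 and Mmp12. The searches in the cholesterol genes and for AP-1 were chosen after the values were seen, and a match is a description of letters and no evidence of binding.

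Genes of the cholesterol synthesis list were lower at week 10 more often than those of any other list described here, in 17 of 20 genes at an unadjusted p under 0.05 (3.64% of all genes) and in 0 genes higher. All 20 log2 fold changes were negative, with a median of -0.65 (0.03 over all genes tested). None passed edgeR's adjusted test, and the smallest adjusted p was 0.395. By DESeq2, 8 of the 20 passed, all lower, among them Mvk, Idi1, Fdps, Fdft1, Cyp51, Insig1 and Msmo1. In 18 of the 20 genes the tumors of weeks 6 and 10 did not overlap, the lower ones all at week 10 (5.17% of all genes).

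The lower values ran along the whole pathway. In its first part, which makes isoprenoids, Idi1, the isomerase of isopentenyl diphosphate, was at 53.4, 59.4 and 49.6 CPM at week 6, at 44.9, 41.1 and 37.5 CPM at week 8 and at 16.7, 29.5 and 36.9 CPM at week 10 (log2 fold change -0.97, SE 0.27, edgeR adjusted p = 0.42). Fdps, which makes farnesyl diphosphate, was at 96.5, 104 and 110 CPM, at 86.4, 79.5 and 68.8 CPM and at 47.1, 53.4 and 83.1 CPM (log2 fold change -0.76, SE 0.21, edgeR adjusted p = 0.42). In both genes, each tumor of week 10 was below each tumor of week 6.

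In the sterol branch, Sqle, the squalene epoxidase, was at 172, 165 and 184 CPM at week 6, at 151, 142 and 119 CPM at week 8 and at 92.7, 123 and 140 CPM at week 10 (log2 fold change -0.55, SE 0.15, edgeR adjusted p = 0.42). Cyp51, which removes the 14-alpha methyl group of lanosterol, was at 230 to 238 CPM at week 6, at 147 to 188 CPM at week 8 and at 75.5, 129 and 172 CPM at week 10 (log2 fold change -0.90, SE 0.27). In both genes the mean levels stood in the descending order of weeks 6, 8 and 10, and no tumor of week 10 reached the week 6 range.

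Among the regulators, Insig1, which holds the SREBP precursors in the endoplasmic reticulum and is itself an SREBP target, had the smallest p of the list. It was at 72.9, 81.1 and 88.8 CPM at week 6, at 72.1, 60.3 and 68.4 CPM at week 8 and at 31.0, 43.0 and 54.3 CPM at week 10 (log2 fold change -0.92, SE 0.23, edgeR adjusted p = 0.395). Srebf2, which encodes the transcription factor SREBP-2, was at 127 to 133 CPM at week 6 and at 82.6, 128 and 111 CPM at week 10, and its groups overlapped (log2 fold change -0.27, SE 0.17).

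The difference was spread over both intervals. The mean of week 8 lay between those of weeks 6 and 10 in 20 of 20 genes (42.1% of all genes tested), and the median log2 difference was -0.34 from week 6 to 8 and -0.33 from week 8 to 10. As a mean over the list on the log2 scale, relative to week 6, replicates 1 to 3 of week 10 were at -1.13, -0.58 and -0.47, and the tumor of week 12 was at -0.16, near week 6. Leaving out each of the 9 tumors gave 11 to 17 genes lower and a median between -0.86 and -0.51. The tumor of week 12 carried Insig1 at 96.5 CPM and Sqle at 199 CPM, above all 9 other tumors.

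**Figure D2:**
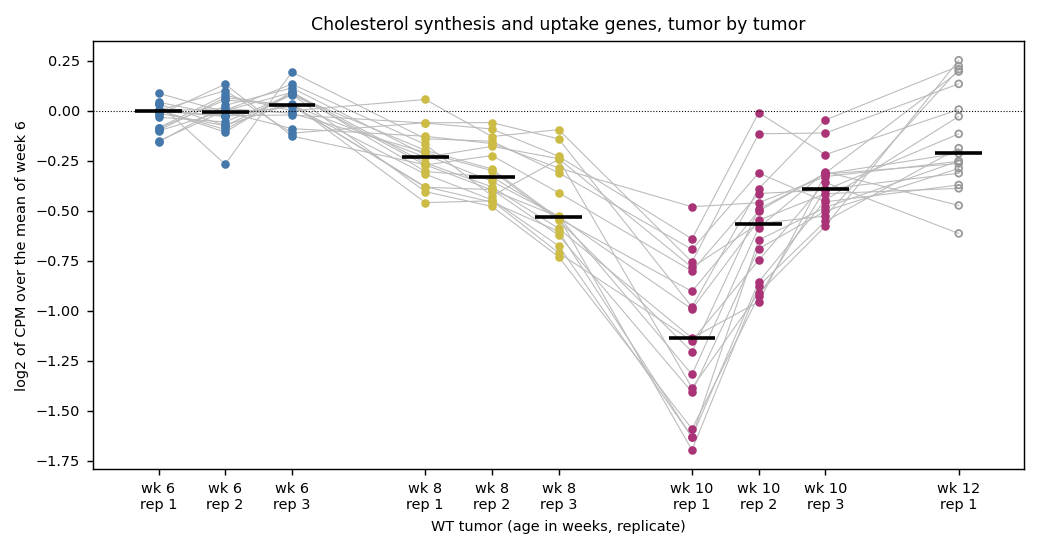
Genes of the cholesterol synthesis list in each WT tumor, as log2 of CPM over the mean of the 3 tumors of week 6. Each point is 1 gene, grey lines join the values of a gene, bars are medians over the genes shown, and open circles mark the tumor of week 12. Of the list, 19 genes are shown, and 1 gene below 1 CPM in all tumors is left out. The medians tend to step down from week 6 to week 8 and to week 10. Replicate 3 of week 8 and replicate 3 of week 10 had close means over the list, -0.49 and -0.47 relative to week 6. Replicate 1 of week 10 is lowest, and the tumor of week 12 returns towards week 6.

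Fatty acid synthesis had smaller counts. 3 of its 20 genes were lower and 1 higher at an unadjusted p under 0.05, and its median was -0.04. Fasn, the fatty acid synthase, was at 706, 828 and 709 CPM at week 6, at 732, 794 and 725 CPM at week 8 and at 546, 602 and 593 CPM at week 10 (log2 fold change -0.37, SE 0.15, edgeR adjusted p = 0.55). Scd1, the stearoyl-CoA desaturase that the study is about, was at 2567, 2502 and 1183 CPM, at 2447, 5861 and 3191 CPM and at 3203, 2097 and 2005 CPM (log2 fold change 0.23, edgeR adjusted p = 0.85), so its ages overlapped. The long noncoding RNA gene Gm50337 was at 0.495 to 0.567 CPM at week 6, at 0.514, 1.03 and 1.17 CPM at week 8 and at 0.442 to 0.472 CPM at week 10 (log2 fold change -0.20, edgeR adjusted p = 0.92). Fatty acid oxidation had 4 of 23 genes higher and 0 lower (4.91% and 3.64% of all genes), a count of 2 without replicate 1 of week 10 or replicate 3 of week 6 and of 9 without replicate 2 of week 10. Among them was Cpt1a, which brings fatty acids into mitochondria, at 70.7, 67.1 and 45.1 CPM at week 6, 104, 100 and 82.3 CPM at week 8 and 180, 92.6 and 80.9 CPM at week 10 (log2 fold change 0.95, SE 0.26, edgeR adjusted p = 0.42, and 0.51 without replicate 1 of week 10).

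Cell cycle genes had lower values at week 10 in every member and differed widely between the 3 tumors. Of 30 DNA replication genes, 16 were lower and 0 higher at an unadjusted p under 0.05 (3.64% and 4.91% of all genes), and all 30 log2 fold changes were negative (median -0.63). None passed the adjusted test of edgeR or of DESeq2. Mcm3, a subunit of the replicative helicase, was at 98.9, 133 and 98.1 CPM at week 6, at 86.3, 73.8 and 69.3 CPM at week 8 and at 26.9, 60.003 and 89.7 CPM at week 10 (log2 fold change -0.90, SE 0.36, edgeR adjusted p = 0.53). Cdc6, which loads that helicase at origins, was at 21.6, 35.7 and 20.5 CPM, at 20.2, 15.4 and 17.0 CPM and at 7.24, 10.6 and 20.2 CPM (log2 fold change -1.03, SE 0.42, edgeR adjusted p = 0.54). Within week 10, replicate 1 was lowest and replicate 3 lay just below the week 6 range in both genes. Without replicate 1 of week 10, the log2 fold change of Mcm3 was -0.55.

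Of 30 G2/M genes, 0 were lower or higher at an unadjusted p under 0.05 by edgeR and 0 passed by DESeq2, although all 30 log2 fold changes were negative (median -0.56). Cdk1 was at 104, 130 and 113 CPM at week 6, at 97.4, 81.0 and 78.8 CPM at week 8 and at 28.9, 62.8 and 109 CPM at week 10 (log2 fold change -0.79, SE 0.55, edgeR adjusted p = 0.66, and -0.43 without replicate 1 or -1.34 without replicate 3 of week 10). Aurka, a mitotic spindle kinase, followed the same order (54.3, 59.1 and 55.5 CPM at week 6 against 15.1, 32.7 and 53.5 CPM at week 10). On the mean over the list, replicates 1 to 3 of week 10 were at -1.69, -0.45 and 0.01 relative to week 6, and over the DNA replication list at -1.46, -0.73 and -0.11. The 3 carcinomas of week 10 thus ranged from far below to level with week 6. Leaving out each tumor gave 0 to 27 lower genes in the DNA replication list: 27 without replicate 3 of week 10, and 0 without replicate 1 of week 10 or replicate 2 of week 6. The median of the G2/M list was -0.22 without replicate 1 of week 10 and -0.96, with 2 genes lower, without replicate 3 of week 10.

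Of 24 chemokine and cytokine genes, 9 were lower and 0 higher at an unadjusted p under 0.05 (3.64% and 4.91% of all genes), with a median log2 fold change of -0.67. Lif, a cytokine of the interleukin-6 family, was at 175, 223 and 236 CPM at week 6, at 115, 110 and 117 CPM at week 8 and at 34.7, 78.2 and 146 CPM at week 10 (log2 fold change -1.29, SE 0.36, edgeR adjusted p = 0.42), and it passed by DESeq2. Csf3, which drives the output of neutrophils, was at 63.2, 92.2 and 64.6 CPM, at 39.6, 39.5 and 41.1 CPM and at 7.24, 27.2 and 55.5 CPM (log2 fold change -1.29, SE 0.51, edgeR adjusted p = 0.53, and -0.82 without replicate 1 or -2.09 without replicate 3 of week 10). Replicate 3 of week 10 had the highest value of its age in both genes. Its mean over the list was -0.02 relative to week 6, against -1.34 and -0.93 in replicates 1 and 2. Without 1 tumor, 2 to 11 genes were lower, the fewest without replicate 1 and the most without replicate 3 of week 10.

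Of 22 genes of the ErbB receptors, their ligands and ERK targets, 5 were lower and 3 higher at an unadjusted p under 0.05 (median -0.32), where 3.64% and 4.91% of all genes were. Without replicate 1 of week 10 these were 2 and 0 (median -0.16), and without replicate 3 of week 10 they were 11 and 3 (median -0.54). The ligand Ereg (epiregulin) was at 7.48, 11.8 and 6.98 CPM at week 6, at 4.04, 2.40 and 3.06 CPM at week 8 and at 0.691, 2.03 and 4.11 CPM at week 10 (log2 fold change -1.95, SE 0.55, edgeR adjusted p = 0.42). The ligand Nrg1 (neuregulin-1) was at 16.4, 18.2 and 24.7 CPM, at 8.79, 4.67 and 7.74 CPM and at 3.59, 8.17 and 13.1 CPM (log2 fold change -1.25, SE 0.44, edgeR adjusted p = 0.50). Dusp4, an ERK phosphatase induced by ERK itself, was at 145, 135 and 212 CPM, at 108, 126 and 97.4 CPM and at 75.2, 90.3 and 125 CPM (log2 fold change -0.76, SE 0.20, edgeR adjusted p = 0.42). None of these 3 genes overlapped between weeks 6 and 10, and Ereg and Dusp4 passed by DESeq2. Pthlh, which encodes PTHrP, was at 2.69, 6.67 and 2.85 CPM at week 6, at 2.16, 2.66 and 2.38 CPM at week 8 and at 1.54, 1.47 and 2.65 CPM at week 10 (log2 fold change -1.11, SE 0.38, edgeR adjusted p = 0.49, and -0.55 without replicate 2 of week 6), and 3.68 CPM in the tumor of week 12.

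Among matrix proteases and their inhibitors, 7 of 22 genes were lower and 1 higher (3.64% and 4.91% of all genes), with a median of -0.01. Adamts1, a secreted protease that cleaves proteoglycans, was at 146, 247 and 188 CPM at week 6, at 182, 113 and 154 CPM at week 8 and at 42.1, 127 and 72.4 CPM at week 10 (log2 fold change -1.26, SE 0.40, edgeR adjusted p = 0.46). No tumor of week 10 reached the week 6 range. The collagen IV chains of basement membranes, Col4a1 and Col4a2, are encoded side by side. Col4a1 was at 175, 116 and 332 CPM at week 6, at 85.9, 62.2 and 68.7 CPM at week 8 and at 88.2, 64.7 and 60.04 CPM at week 10 (log2 fold change -1.55, SE 0.43, edgeR adjusted p = 0.42). Weeks 8 and 10 overlapped and both lay below week 6, and Col4a2 had the same order (62.5 to 132 CPM at week 6, 33.8 to 45.6 CPM at week 8, 34.98 to 44.5 CPM at week 10). Both passed by DESeq2.

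Most other collagens and matrix genes had higher values, and mainly in 1 tumor. The list of 20 had a median of 1.01, with 1 gene higher and 3 lower at an unadjusted p under 0.05 (4.91% and 3.64% of all genes), and the median was -0.01 without replicate 1 of week 10. The mean over the list was 1.58, 0.26 and -0.10 in replicates 1 to 3 of week 10. Col1a2, a chain of collagen I, was at 10.9, 4.15 and 1.09 CPM at week 6 and at 45.8, 15.2 and 6.02 CPM at week 10 (log2 fold change 2.04, SE 1.09). Of the 10 fibroblast markers, 2 were higher and 0 lower at that p (median 1.08). Without replicate 1 of week 10 these were 0 and 1 (median 0.58), and 0 were higher without replicate 3 of week 6. Col1a1, Col1a2, Col3a1, Dcn and Lum are in both lists, so the lists are not independent. Lum and Dpt were below 1 CPM in all tumors, and the sum of the 10 markers was 16 to 54.9 CPM at week 6, 37.0 to 40.8 CPM at week 8 and 37.4 to 151 CPM at week 10. Since RNA was read in bulk, a change in the number of cells of a type and a change in RNA per cell cannot be told apart. The part of fibroblasts in these values was not tested. The sort kept GFP+ cells, and stromal cells in which Cre has not acted keep tdTomato and would be left out by it. The tdTomato row was at 80.5 to 181 CPM and the EGFP row at 318 to 971 CPM in the 9 tumors.

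Basal and myoepithelial genes had a median of -0.73, with 4 of 16 lower and 0 higher (3.64% and 4.91% of all genes). 2 were lower without replicate 2 or 3 of week 10 or replicate 3 of week 6, and without the last the median was -0.31. Actg2, a smooth muscle actin, was at 30.0, 9.75 and 58.8 CPM at week 6, at 10.32, 8.62 and 7.38 CPM at week 8 and at 8.20, 2.53 and 5.58 CPM at week 10 (log2 fold change -2.58, SE 0.80, edgeR adjusted p = 0.46), and it passed by DESeq2. The basal keratin Krt5 varied within week 10 alone from 22.3 to 432 CPM, against 157 to 187 CPM at week 6 (log2 fold change 0.20, SE 0.61). The list had means of 0.05, -0.76 and -1.47 in replicates 1 to 3 of week 10 and -1.61 in the tumor of week 12. The order of replicates was the reverse of that for cell cycle genes. Of the hormone-receptor luminal genes, 2 of 14 were lower, Tbx3 and Foxa1, and 0 higher (median 0.08), and 8 of the 14 log2 fold changes were positive. Without replicate 3 of week 6, 0 were lower. Esr1, the estrogen receptor, was at 3.53 to 4.21 CPM at week 6 and at 8.66, 4.82 and 4.56 CPM at week 10 (log2 fold change 0.68, SE 0.49, edgeR adjusted p = 0.68). Tbx3, a transcription factor of hormone-sensing cells, was at 3.80, 1.96 and 10.5 CPM at week 6 and at 1.96, 0.685 and 1.16 CPM at week 10 (log2 fold change -2.06, SE 0.60, edgeR adjusted p = 0.44), and -1.18 without replicate 3 of week 6.

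**Figure D3:**
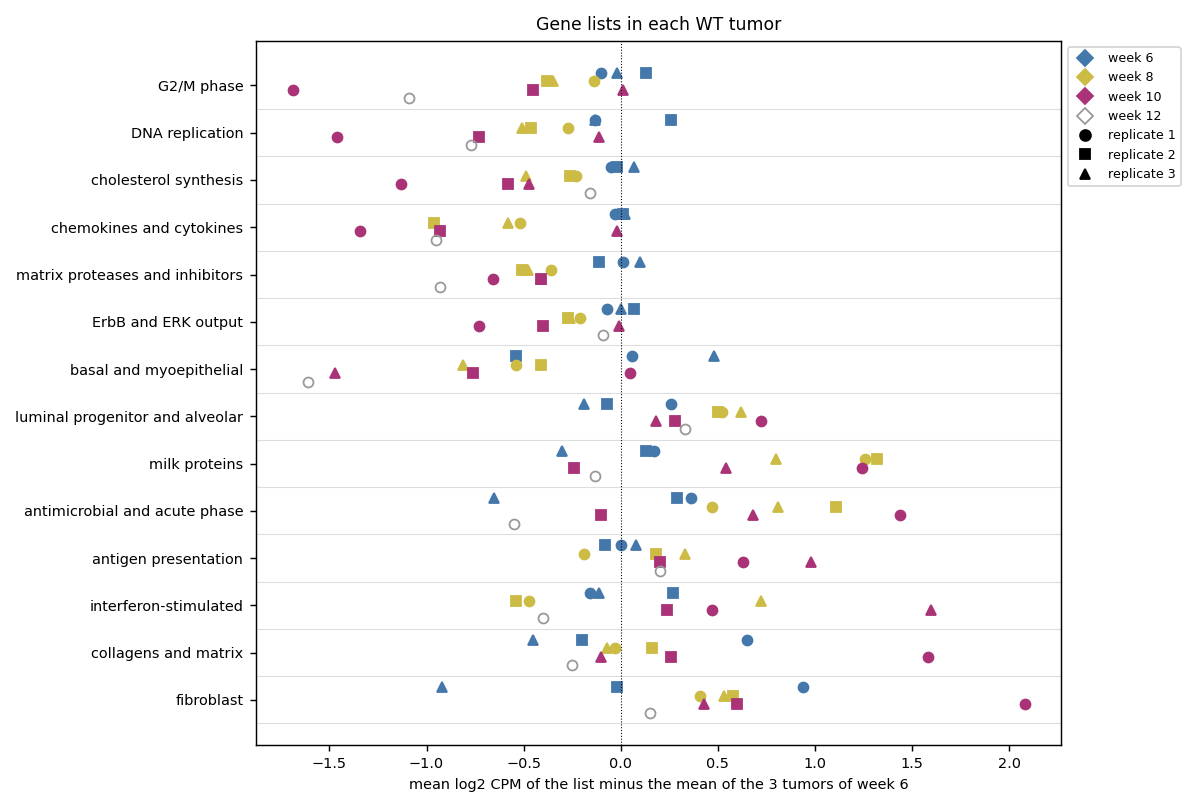
Mean log2 CPM of each gene list in each WT tumor, minus the mean of the 3 tumors of week 6. Color gives the age and symbol the replicate, and open circles mark the tumor of week 12. Replicate 1 of week 10 is lowest for the cell cycle and cytokine lists and highest for collagens and fibroblast markers, which share genes. Replicate 3 of week 10 is highest for interferon-stimulated genes, and the 3 tumors of weeks 6 and 8 mostly lie closer together.

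Antigen presentation, interferon-stimulated and antimicrobial genes were among the lists with positive medians at week 10. Of 15 antigen presentation genes, 5 were higher and 0 lower at an unadjusted p under 0.05 (4.91% and 3.64% of all genes), and all 15 log2 fold changes were positive (median 0.62). Tap2, which pumps peptides to class I molecules, was at 43.4, 35.3 and 34.5 CPM at week 6, at 42.0, 47.8 and 52.4 CPM at week 8 and at 67.0, 55.0 and 67.5 CPM at week 10 (log2 fold change 0.74, SE 0.26, edgeR adjusted p = 0.49). The groups of weeks 6 and 10 did not overlap, and the number of genes higher in the list was 1 to 7 without 1 tumor, with 1 without replicate 2 of week 6.

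Interferon-stimulated genes had a median of 1.08, yet 1 of 23 was higher (4.35%) and 0 were lower at that p, against 4.91% and 3.64% of all genes. In 12 of the 23 genes all tumors of week 10 were above all of week 6 (6.15% of all genes). Zbp1, a sensor of nucleic acids, was at 7.66, 9.03 and 5.78 CPM at week 6, at 7.25, 9.06 and 16.5 CPM at week 8 and at 18.8, 19.1 and 30.2 CPM at week 10 (log2 fold change 1.60, SE 0.65, edgeR adjusted p = 0.54). Isg15, a ubiquitin-like protein, was at 3.80, 5.75 and 2.79 CPM at week 6 and at 7.01, 5.2 and 33.6 CPM at week 10. Replicate 3 of week 10 stood out with a list mean of 1.60 relative to week 6, against 0.47 and 0.24 in the other tumors of its age, and replicate 3 of week 8 was at 0.72. Without replicate 3 of week 10 the median was 0.30. Lymphocyte markers, as given above, summed to 1.36 CPM at most.

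Antimicrobial and acute-phase genes were higher in 5 of 15 members and lower in 0 (median 0.81), against 4.91% and 3.64% of all genes, and all 15 log2 fold changes were positive. Without replicate 3 of week 6, 1 was higher (median 0.60), and without replicate 1 of week 10, 2 were higher (median 0.57). Cp, the copper carrier ceruloplasmin, was at 2188, 1353 and 1811 CPM at week 6, at 3009, 3739 and 3113 CPM at week 8 and at 4026, 2767 and 2583 CPM at week 10 (log2 fold change 0.81, SE 0.26, edgeR adjusted p = 0.48). The iron scavenger Lcn2 was at 3259, 2202 and 1940 CPM, at 3749, 4891 and 4274 CPM and at 4573, 3487 and 3861 CPM (log2 fold change 0.69, SE 0.29, edgeR adjusted p = 0.54). For both genes weeks 8 and 10 overlapped above week 6, and the tumor of week 12 was within the week 6 range, at 1470 CPM for Cp and 1943 CPM for Lcn2. Hp, haptoglobin, was at 383 CPM in replicate 1 of week 10 and at 20.5 and 20.7 CPM in the others, so that its log2 fold change of 2.46 turned to -0.32 without that tumor.

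Week 8 was used to separate a steady course from a passing one. Against the mean of weeks 6 and 10, 2 genes were higher at week 8 (0.00548% of the genes tested) and 0 lower (0%) by edgeR's adjusted test, while 790 (2.16%) were higher and 538 (1.47%) lower at an unadjusted p under 0.05. DESeq2 called 3 higher and 3 lower. Rsad1 (chr11:94539798-94549255), which encodes a radical SAM family protein, was at 3.44, 2.22 and 1.73 CPM at week 6, at 4.23, 6.47 and 8.294 CPM at week 8 and at 3.25, 3.12 and 2.30 CPM at week 10. Every tumor of week 8 was above every tumor of the other 2 ages, the tumor of week 12 was at 4.18 CPM, and the log2 difference was 1.24 (SE 0.20, edgeR adjusted p = 0.042). It passed in 10 of 17 alternatives, with log2 differences of 0.99 to 1.46 and adjusted p of 0.00019 to 0.68.

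The other gene, the processed pseudogene Gm10036, was at 35.1 and 10.2 CPM in replicates 1 and 2 of week 8 and at 0.362 CPM in replicate 3, against 0.142 to 0.381 CPM in the tumors of weeks 6 and 10. Its log2 difference of 5.70 (SE 0.80, edgeR adjusted p = 0.0058) thus rests on 2 tumors, and its reads may be shared with the parent gene or other copies. It passed in 14 of 17 alternatives, with adjusted p up to 1.

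The 4 genes that fell from week 6 to week 10 all had their mean of week 8 between the other ages. They were chosen for a wide gap between weeks 6 and 10, which favors this position, so the share over all genes is no reference for them. The mean of week 8 also lay between in the 30 DNA replication genes and the 30 G2/M genes, as in the cholesterol genes above. Of all genes tested, 42.1% lay between, 30.1% above both and 27.8% below both. For milk protein genes, week 8 was above both other ages in 12 of 14 of them and between them in 0.

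Csn1s1, an alpha casein, was at 3.28, 4.10 and 2.20 CPM at week 6, at 16.1, 30.0 and 11.04 CPM at week 8 and at 33.9, 3.80 and 19.3 CPM at week 10 (log2 fold change from week 6 to 10 of 2.56, SE 0.80, edgeR adjusted p = 0.46), and it passed by DESeq2. Lalba, the alpha-lactalbumin subunit of lactose synthase, was at 1.41, 1.83 and 0.528 CPM, at 17.3, 5.64 and 43.8 CPM and at 13.7, 2.03 and 3.26 CPM (log2 difference of week 8 from the mean of weeks 6 and 10 of 2.96, SE 0.72, edgeR adjusted p = 0.80). Csn3, the kappa casein, was at 426, 215 and 216 CPM, at 807, 806 and 999 CPM and at 1100, 512 and 419 CPM. In all 3 genes week 8 lay above week 6 with no overlap. At week 10, replicate 2 for Csn1s1 and replicate 3 for Csn3 were within the week 6 range, while all 3 tumors were above it for Lalba. On the mean over the list, the tumors of week 8 were at 1.26, 1.32 and 0.80 relative to week 6 and those of week 10 at 1.24, -0.24 and 0.54. Over the list, 3 of 14 genes were higher and 0 lower from week 6 to 10 (median 0.67), against 4.91% and 3.64% of all genes, and without replicate 1 of week 10 the count was 1 and the median 0.14.

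Luminal progenitor and alveolar genes lay above both ages at week 8 in 9 of 14 (30.1% of all genes). From week 6 to week 10, 4 were higher and 1 lower (median 0.48), where 4.91% and 3.64% of all genes were. Without replicate 1 of week 10, 1 was higher (median 0.28), without replicate 3 of week 6, 2 were (median 0.41), and without replicate 3 of week 10, 6 were (median 0.66). Kit, the receptor of stem cell factor, was at 33.2, 20.1 and 13.7 CPM at week 6, at 66.6, 65.2 and 78.7 CPM at week 8, at 140, 49.2 and 47.8 CPM at week 10 and at 198 CPM in the tumor of week 12 (log2 fold change 1.82, SE 0.46, edgeR adjusted p = 0.39, and 1.12 without replicate 1 of week 10), and it passed by DESeq2. Ehf, an ETS factor of luminal epithelium, was at 166, 125 and 111 CPM, at 217, 239 and 278 CPM and at 297, 200 and 180 CPM (log2 fold change 0.75, SE 0.24, edgeR adjusted p = 0.47). The lower gene was Aldh1a3, an aldehyde dehydrogenase used as a marker of luminal progenitors, at 60.9, 80.9 and 110 CPM at week 6, at 56.3, 30.3 and 44.7 CPM at week 8 and at 19.4, 59.9 and 29.997 CPM at week 10 (log2 fold change -1.20, SE 0.50, edgeR adjusted p = 0.54), with no overlap between weeks 6 and 10. Fatty acid synthesis genes, which the alveolar cell uses for milk fat, were above both ages at week 8 in 14 of 20. Other lists had week 8 below both ages in many members (27.8% of all genes), with 11 of 16 in the epithelial-mesenchymal transition list, 15 of 26 for hypoxia and glycolysis, 11 of 20 for ATF4 targets and 11 of 23 for interferon-stimulated genes.

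**Figure D4:**
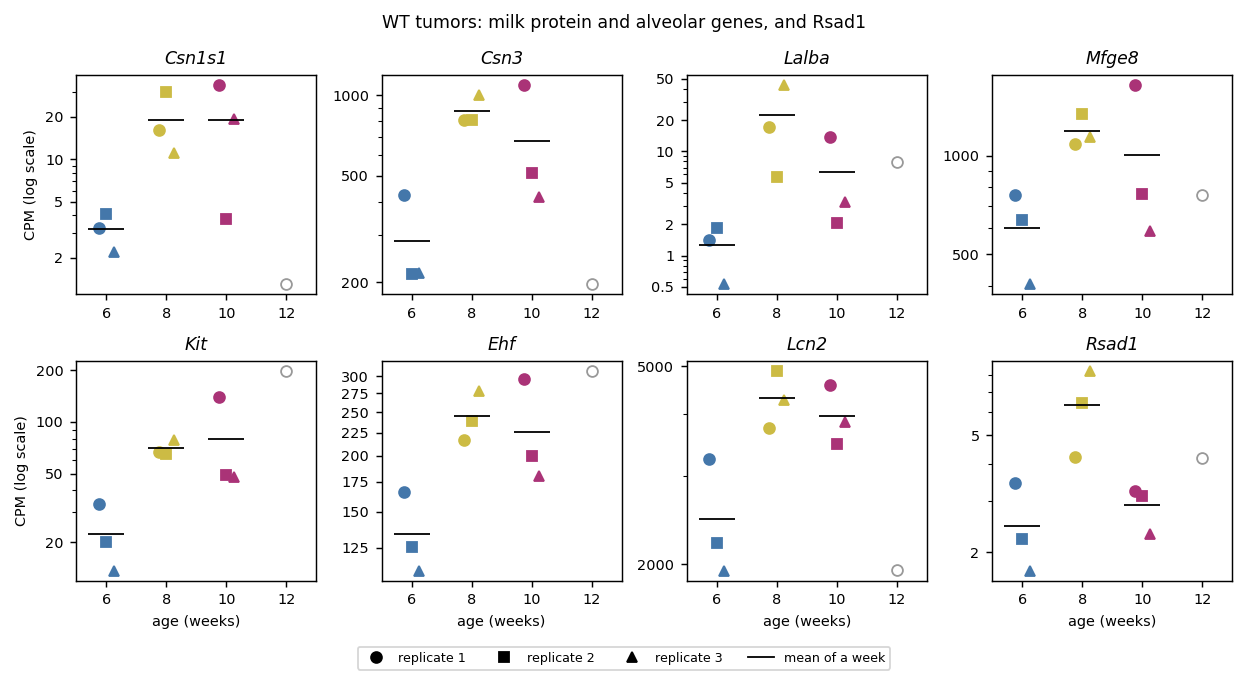
Level of 4 milk protein genes, 3 luminal progenitor and alveolar genes and Rsad1 in each WT tumor, in CPM on a log axis, against age in weeks. Symbols mark the replicates, bars are means of 3 tumors, and the open circle is the tumor of week 12. In the first 7 panels week 8 is above week 6 without overlap, and replicate 1 of week 10 is highest of its age, while Rsad1 is back near its week 6 level at week 10.

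Neither interval alone gave a DEG by edgeR. From week 6 to week 8, 0 genes passed (smallest adjusted p = 0.315), 1412 (3.87%) were higher and 1002 (2.74%) lower at an unadjusted p under 0.05, and DESeq2 called 44 genes. From week 8 to week 10, 0 passed (smallest adjusted p = 0.398), 740 (2.03%) were higher and 487 (1.33%) lower, and DESeq2 called 4. These intervals share the tumors of week 8 with each other and the tumors of weeks 6 and 10 with the whole course, so their counts are not independent. For Mmp10, the log2 difference was -2.16 (SE 0.45) in the first interval and -0.50 (SE 0.44) in the second. For Calcb it was -0.74 (SE 0.48) and -2.30 (SE 0.53). Interferon-stimulated genes had list medians of 0.09 and 1.02, and milk protein genes of 0.87 and -0.28.

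The remaining lists are given by their counts at an unadjusted p under 0.05. Of 18 CDK inhibitors and p53 targets, 4 were lower (22.2%, against 3.64% of all genes) and 0 higher, with a median of -0.27. Sesn2, a stress-induced inhibitor of mTORC1 signaling that is also in the ATF4 list, was at 36.6, 32.5 and 47.1 CPM at week 6, at 30.2, 15.7 and 19.2 CPM at week 8 and at 18.8, 30.9 and 12.6 CPM at week 10 (log2 fold change -0.90, SE 0.26, edgeR adjusted p = 0.44), with no overlap between weeks 6 and 10, and it passed by DESeq2. The count of lower genes in this list was 1 without replicate 1 of week 10, 2 without replicate 3 of week 6 and 6 without replicate 3 of week 10. In the DNA repair list, with a median of -0.29 and 26 of 30 log2 fold changes negative, 1 of 30 genes was lower, the excision repair nuclease subunit Ercc1, at 62.3, 68.0 and 60.9 CPM at week 6, at 41.6, 34.5 and 37.0 CPM at week 8 and at 29.9, 38.3 and 45.6 CPM at week 10 (log2 fold change -0.75, SE 0.20, edgeR adjusted p = 0.42). In the TGF-beta and BMP list, 5 of 23 were lower and 1 higher (3.64% and 4.91% of all genes), with 3 lower without replicate 1 of week 10 or replicate 3 of week 6 and 3 higher without replicate 2 or 3 of week 10. Id3, an inhibitor of helix-loop-helix factors, was at 60.6, 56.3 and 63.5 CPM, at 59.8, 50.9 and 31.7 CPM and at 30.8, 24.1 and 33.2 CPM (log2 fold change -1.03, SE 0.27, edgeR adjusted p = 0.42). In the Wnt list, 2 of 20 were lower and 3 higher, which were 4 and 1 without replicate 1 of week 10 and 1 and 0 without replicate 3 of week 6. The ligand Wnt10a was at 7.73, 8.79 and 9.95 CPM, at 5.31, 3.56 and 3.66 CPM and at 3.03, 2.48 and 2.67 CPM (log2 fold change -1.69, SE 0.44, edgeR adjusted p = 0.42). In Ercc1, Id3 and Wnt10a no tumor of week 10 overlapped with week 6, and all 3 passed by DESeq2.

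Of 17 Notch pathway genes, 3 were higher (17.6%, against 4.91% of all genes) and 0 lower (median 0.36). The count of higher genes was 0 without replicate 2 of week 10, 1 without replicate 1 or 3 of week 6 and 5 without replicate 3 of week 10. The nuclear genes of the respiratory chain had 0 of 22 higher and 1 lower, and the mitochondrial ones 0 of 13 in either direction. In the epithelial-mesenchymal transition list 1 of 16 was lower and 0 higher, the receptor tyrosine kinase Axl, at 235, 240 and 271 CPM at week 6 and at 94.2, 169 and 163 CPM at week 10 (log2 fold change -0.81, SE 0.33, edgeR adjusted p = 0.54). Of 16 luminal epithelial genes, 1 was higher and 1 lower (median -0.08). The higher one was Grhl2, a transcription factor of epithelial junction genes, at 108 to 122 CPM at week 6 and at 182, 125.3 and 125.2 CPM at week 10 (log2 fold change 0.32, SE 0.13, edgeR adjusted p = 0.54, and 0.12 without replicate 1 of week 10). The lower one was the tight junction protein Cldn4, at 1269 to 1776 CPM and at 736, 1234 and 1458 CPM (log2 fold change -0.44, SE 0.20, edgeR adjusted p = 0.56, and -0.20 without that tumor). In the other lists, the genes higher and lower were 1 and 3 of 26 hypoxia and glycolysis genes, 1 and 2 of 20 immediate early genes, 2 and 1 of 20 ATF4 targets, 2 and 2 of 24 cell death genes, 1 and 3 of 16 imprinted growth genes, 3 and 1 of 13 IGF axis genes, 1 and 0 of 15 long noncoding RNA genes and 3 and 1 of 12 genes of the PTHrP axis. Over all genes tested, 4.91% were higher and 3.64% lower. Without replicate 1 of week 10, 0 genes of the IGF axis and 1 of the PTHrP axis were higher. Without replicate 3 of week 10, 9 of the ATF4 list (median -0.34, against 0.09 on all tumors), 8 of the DNA repair list, 6 of the immediate early list, 6 of the nuclear respiratory chain and 5 of the luminal epithelial list were lower.

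**Figure D5:**
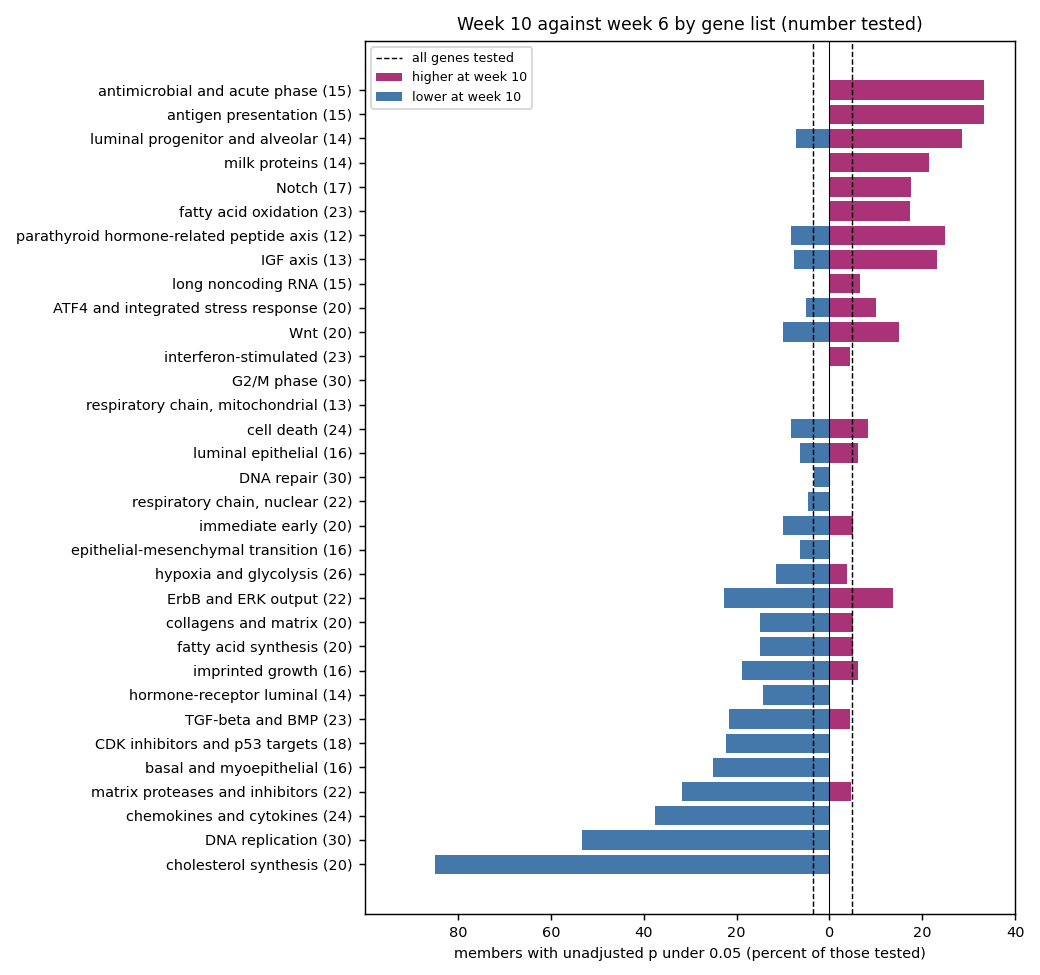
Share of each gene list, in percent of the members tested, that was higher (right) or lower (left) at week 10 than at week 6 at an unadjusted p under 0.05 by edgeR. The number of members tested is in brackets, and dashed lines mark the shares over all genes tested, 4.91% higher and 3.64% lower. Cholesterol synthesis has the longest bar to the left and antimicrobial and antigen presentation genes the longest to the right.

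The change in WT tumors was then tested against that in tumor-free WT glands of the same ages. By edgeR, 0 genes differed between tumor change and gland change after adjustment (smallest adjusted p = 0.92), 776 were higher and 779 lower at an unadjusted p under 0.05, and DESeq2 called 3. For the 4 genes that fell in tumors, the difference (tumor change minus gland change) was -3.45 (SE 0.78) for Calcb, -3.00 (SE 0.69) for Mmp10, -2.49 (SE 0.60) for Dcdc2a and -1.47 (SE 0.42) for Dusp10 on the log2 scale, each with an edgeR adjusted p of 0.92. The list median was -1.10 for DNA replication, -1.66 for G2/M and -0.65 for cholesterol synthesis, against 0.01 over all genes. In the tumors alone these medians were -0.63, -0.56 and -0.65, and a difference also holds the change in the glands. At an unadjusted p under 0.05, 16 of 30, 7 of 30 and 7 of 20 were lower and 0 higher (2.13% and 2.12% of all genes). There were 2 glands an age, and these tests reuse the tumors that chose the 4 genes.

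Against the course of PTHrP KO tumors from 8 to 12 weeks, which the study assigns to the same stages, 0 genes differed by edgeR after adjustment (smallest adjusted p = 0.55), 2034 were higher and 1291 lower at an unadjusted p under 0.05, and DESeq2 called 12. WT change minus KO change was -3.59 (SE 0.73) for Calcb, -2.73 (SE 0.62) for Mmp10, -1.67 (SE 0.54) for Dcdc2a and -1.16 (SE 0.37) for Dusp10 on the log2 scale, each with an edgeR adjusted p of 0.55. These differences reuse the WT tumors that chose the 4 genes, which favors negative values. The list median was -1.14 for DNA replication, -1.38 for G2/M and -0.47 for cholesterol synthesis, against 0.17 over all genes. In the WT tumors alone these medians were -0.63, -0.56 and -0.65, and a difference also holds the change in the KO tumors. At an unadjusted p under 0.05, 27 of 30, 3 of 30 and 3 of 20 were lower and 0 higher (3.53% and 5.57% of all genes). The 6 KO tumors had 0.00331% to 12% of their reads on ribosomal RNA genes and 1.79% to 8.87% on mitochondrial genes, against at most 0.447% and 1.28% to 3.46% in the 9 WT tumors, and the part of these shares in the values was not tested. The ages differ between the genotypes, so genotype and age cannot be told apart here.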

How the data were processed

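Sorted GFP+ cells of 33 mice were sequenced after rRNA depletion. The authors aligned reads with HISAT (GRCm38, Gencode M16), removed duplicates with Picard 1.128 and deposited raw counts per gene from HTSeq; whether counting used strand is not given in the sources used here. A further deposited table holds normalized signal (counts over a size factor per library) and was used in 1 alternative. Groups came from the labels. Of the count rows, 111 spike-in, reporter and transgene rows were left out of tests, and of 55487 genes 36527 had at least 10 reads summed.

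All 33 libraries were fitted with edgeR 4.0.16 (TMM, quasi-likelihood, R 4.3.3), 1 coefficient per genotype, tissue and age, with Benjamini-Hochberg adjustment. CPM use TMM library sizes. SE is the log2 fold change over the root of F. Alternatives used DESeq2 1.42.0, limma 3.58.1 (log2 of signal plus 1), other filters, scaling and libraries. The code recovered known changes in simulated counts. p-values measure spread between mice, 1 library each.

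Members and gene lists were chosen with earlier results of these data known. Named genes were DEGs by size of change (symbol not a predicted model, mean of at least 1 CPM, no overlap), up to 4 members of a list with the smallest p, and the genes the study is about; Gm10036, Slc7a8, Ripor2, Cldn6, Mmp12, Mmp3, Mmp13 and other list members outside it were chosen after their values were seen. Replicate numbers name mice and did not pair them. Some members of the lists are counted and are not reported here by name.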

Additional observations from a re-analysis of the deposited data

How the results depend on the processing

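Of the genes called from week 6 to week 10, 4 by edgeR on all libraries, the count was 253 with DESeq2, 672 with DESeq2 on the WT tumors of weeks 6, 8 and 10 alone, 440 with no filter on low counts, 0 with edgeR's own filterByExpr, 2 with only the libraries compared, 7 with limma on the normalized table and 0 at an adjusted p under 0.05. For week 8 against the mean of weeks 6 and 10 (2 genes) these were 6, 70, 34, and 0 with only the libraries compared and with limma. From week 6 to 8 (0 genes) DESeq2 gave 44, or 337 on the WT tumors alone, and no filter 180. From week 8 to 10 (0 genes) they gave 4, 33 and 15. Tumor against gland change (0 genes) gave 3 with DESeq2 and 19 with no filter, and WT against KO change (0 genes) 12 and 39. The cause of these differences was not tested.

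Leaving out 1 library at a time gave 0 to 376 genes from week 6 to 10, 1 to 5 for week 8 against the mean of the others, 0 to 2 for each interval, 0 to 1 for tumor against gland change and 0 to 33 for WT against KO change. From week 6 to 10, the count was 376 without replicate 3 of week 10, 7 without replicate 2 of week 6, 2 without replicate 1 of week 6 or of week 8, and 0 without replicate 1 or 2 of week 10, replicate 2 of week 8 or replicate 3 of week 6. For WT against KO change it was 33 without replicate 3 of week 10, 31 without KO replicate 1 of week 8, 3 without KO replicate 3 of week 12 and 1 without replicate 2 of week 6. A tumor left out leaves an age with 2 libraries.

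With the replicate number as a block the count from week 6 to 10 was 4, with Ripor2 in place of Dcdc2a, and the counts of the other comparisons were as without it. The numbers do not pair the samples: same-numbered tumors had correlations of deviations of -0.28 to 0.36, 1 of 9 above 0.1.

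Among 2291 gene values under alternatives, 2110 kept direction and side of the threshold, 133 newly passed, 41 no longer passed and 7 changed sign in log2 fold change or went to 0: Cdh2 (0.05; -1.11 to 0.05 over all tumors left out) and Scd1 (-0.06; -0.06 to 0.40) without replicate 3 of week 6, Trib3 (-0.07; -0.07 to 0.72) without replicate 3 of week 10, mt-Nd4l (0; -3.20 to 0) without replicate 2 of week 6, the only 1 of the 9 tumors with reads for it, and H19 (-0.95; -0.95 to 2.92), Hp (-0.32; -0.32 to 2.98) and Scd1 (-0.02) without replicate 1 of week 10. Of 731 list medians, 710 moved less than their spread. The choices of limma on the normalized table and DESeq2 on the WT tumors alone were made after seeing the data. A count test on reads recovered from the normalized table was not run. At 14 reads, as for Calcb in a tumor of week 10, counting error limits a value.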
